A study of Homo sapiens with 16 samples.

Results

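Of 562 genes whose symbol was LINC followed by digits, 108 reached at least 1 RPKM (read density over the exons of a gene, corrected for gene length and sequencing depth) in 2 or more of the 16 libraries. These 108 are described here, out of 57820 genes in the table and 18149 that passed the same filter on level. A further 278 LINC symbols had some reads and were below that filter. The members just above the threshold, by their second-highest value, were LINC00578 at 1.00 RPKM, LINC00535 at 1.02 RPKM and LINC00853 at 1.04 RPKM. Just below it lay LINC01021 at 0.996 RPKM, LINC00842 at 0.972 RPKM and LINC00942 at 0.962 RPKM.

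The cells were SK-OV-3, an established human ovarian carcinoma line with high ERBB2. They carried shRNA #1, #3 or #5 against PRMT1 (shPRMT1) or a scrambled shRNA (shScramble), and were given cisplatin, a drug that crosslinks DNA, at 20 µM for 24 h or left untreated. Each of the 8 groups had 2 biological replicates, and how the cultures were kept apart is not stated. The p-values therefore measure the spread between the 2 libraries of a group. Without a replicate block, that spread includes a difference between replicates 1 and 2 that the groups shared in part. Spread between the 3 hairpins does not enter the p-values. All groups come from 1 line, and by their source labels all carry a hairpin. The titles of the control libraries begin with Emp in place of shScramble, and what Emp stands for was not established. The shPRMT1 group pools 3 hairpins, 6 libraries per drug state, and sets them against 2 shScramble libraries.

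LINC symbols were given to loci between protein-coding genes whose transcripts are long, usually spliced and polyadenylated, with no long open reading frame. Some of these transcripts act as RNA, for example by binding proteins or shaping transcription nearby, and many have no known role. Others were later found to hold a small protein or to be an extension of a neighbouring gene, and were renamed. PRMT1 methylates arginines of many RNA-binding proteins and of histone H4, and is the source of most asymmetric dimethylarginine in cells.

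Between 12289319 and 16039782 reads lay behind a library, and a transcript of 1 kb with 3 reads would stand at 0.187 to 0.244 RPKM. PRMT1 was at 4.12 to 10.4 RPKM in shPRMT1 cisplatin libraries and 4.58 to 8.48 in shPRMT1 untreated ones, against 17.8 to 20.5 RPKM in shScramble cisplatin and 19.3 to 23.5 in shScramble untreated libraries. Of 6 epithelial markers, KRT8, KRT18, KRT19, KRT7 and EPCAM ran from 13.5 to 56.6 RPKM over the libraries, while CDH1 stood at 0.214 to 2.67 RPKM with a median of 0.443. The T cell marker CD3E stayed at or under 0.0286 RPKM. The summed level of 3 fibroblast markers moved with the drug, at 5.76 to 24.7 RPKM in shPRMT1 cisplatin and 20.8 to 42.3 in shPRMT1 untreated libraries, and at 7.38 to 10.2 in shScramble cisplatin and 24.3 to 37.0 in shScramble untreated libraries. The summed level of 4 leukocyte markers was 0.808 to 2.68 RPKM in shPRMT1 cisplatin and 0.213 to 0.661 in shPRMT1 untreated libraries, and 0.270 to 0.310 RPKM in shScramble cisplatin and 0.284 to 0.361 in shScramble untreated libraries. All libraries come from the same carcinoma line, so these sums do not count fibroblasts or leukocytes. In bulk RNA, fewer cells of the line expressing a marker and less marker RNA per cell cannot be told apart. The part of these markers in the changes below was not tested. ACTB stood at only 42.3 to 58.7 RPKM, so high values in this table appear compressed.

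Promoter sequences are shown for the members in which a short binding motif of AP-1, the stress-responsive factor of FOS and JUN proteins, lay near the annotated start. They are given because LINC00973 and LINC00601, among the larger cisplatin responses below, are in this group. RefSeq promoter windows on GRCh38.p14, 250 bases before to 50 bases after the start, were matched for 72 members, and 42 of these lay within 100 bases of the GENCODE v29 start of the same gene. TGACTCA, or TGAGTCA on the other strand, occurred in 4 of the 42 (9.52%) and in 1738 of all 35116 promoter windows (4.95%). The other motifs searched were the cyclic AMP response element TGACGTCA, in 2 of 42 (LINC00630 and LINC00265) and 1.85% of all windows, and the composite CEBP-ATF site TGATGCAA, or TTGCATCA on the other strand, in 0 of 42 and 0.866% of all windows. No motif contains another. Of the 10 members among these 42 that were higher with cisplatin in both kinds of cells, 2 held the AP-1 motif. Over all 72 matched windows 9 held it, the other 5 being LINC00339, LINC00460, LINC00152, LINC00963 and LINC00618, whose windows lay further from the GENCODE start. Over these 72 windows, 19 belonged to members higher in both kinds of cells and 3 of the 19 held the motif. In the sequences below capitals mark it and each reads 5′ to 3′ along the gene: LINC00973 (chr3:98980805-98981104, plus strand, motif at -49), LINC00601 (chr10:126421830-126422129, minus strand, at -154), LINC00346, now PRECSIT (chr13:110870259-110870558, minus strand, at -98 and -42), and LINC00704, now MANCR (chr10:4678021-4678320, minus strand, at -126).
LINC00973: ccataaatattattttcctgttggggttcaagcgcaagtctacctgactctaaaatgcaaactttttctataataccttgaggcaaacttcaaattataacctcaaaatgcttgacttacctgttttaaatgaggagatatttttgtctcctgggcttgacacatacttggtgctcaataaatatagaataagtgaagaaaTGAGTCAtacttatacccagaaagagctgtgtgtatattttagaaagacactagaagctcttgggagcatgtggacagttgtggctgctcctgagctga
LINC00601: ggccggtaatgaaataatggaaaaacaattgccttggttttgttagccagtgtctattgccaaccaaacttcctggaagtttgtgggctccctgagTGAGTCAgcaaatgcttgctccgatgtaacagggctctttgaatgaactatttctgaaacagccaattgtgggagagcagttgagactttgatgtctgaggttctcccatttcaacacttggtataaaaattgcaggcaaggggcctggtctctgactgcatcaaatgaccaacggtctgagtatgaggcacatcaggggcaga
LINC00346: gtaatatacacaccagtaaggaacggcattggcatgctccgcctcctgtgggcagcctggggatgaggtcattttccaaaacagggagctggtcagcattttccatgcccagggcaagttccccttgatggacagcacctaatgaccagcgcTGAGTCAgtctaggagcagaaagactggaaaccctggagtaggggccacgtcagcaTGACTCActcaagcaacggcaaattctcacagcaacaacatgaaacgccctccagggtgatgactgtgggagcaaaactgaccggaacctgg
LINC00704: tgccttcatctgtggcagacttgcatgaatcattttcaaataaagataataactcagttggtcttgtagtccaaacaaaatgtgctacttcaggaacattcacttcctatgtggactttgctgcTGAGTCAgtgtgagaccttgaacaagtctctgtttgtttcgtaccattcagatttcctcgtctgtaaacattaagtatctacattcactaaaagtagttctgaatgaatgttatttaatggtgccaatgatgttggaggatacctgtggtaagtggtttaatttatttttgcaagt
A match is a string of letters and not evidence of binding.

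LINC00973 has been studied in cancer cells given chemotherapeutic drugs. It is a transcript of 962 bases on GRCh37 chromosome 3, 98699901 to 98701940, plus strand, and overlaps CTD-2021J15.1 on the same strand, so reads may be shared. It was singled out for its rise on knockdown, so the knockdown values are a description. With cisplatin the shPRMT1 #1 libraries held 48.5 and 35.9 RPKM, #3 held 29.8 and 30.7, and #5 held 36.3 and 36.8. Untreated, shPRMT1 #1 held 26.4 and 19.1 RPKM, #3 held 12.4 and 10.6, and #5 held 13.4 and 11.5. shScramble cells held 33.6 and 33.7 RPKM with cisplatin and 3.68 and 3.03 RPKM untreated. All untreated shPRMT1 libraries lay above both untreated shScramble libraries, and under cisplatin the shRNA classes overlapped. The mean was 2.34 times the untreated mean in shPRMT1 cells and 10.04 times in shScramble cells. Reads behind these values ran from 41 to 616 per library. The LINC00973 values with cisplatin lay near those of ACTB and GAPDH, at 42.3 to 58.7 and 34.5 to 40.3 RPKM over all libraries. High values appear compressed there, and the part of compression in the overlap and in these ratios was not tested.

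The LINC members were lowly expressed as a class. The median of their mean levels was 1.94 RPKM, with a range of 0.292 to 53.5, against a median of 6.62 RPKM over all tested genes. A mean of 10 RPKM or more was reached by 17 members, and 29 averaged under 1 RPKM. In all 16 libraries 48 members stayed at or above 1 RPKM. At least 100 reads in some library were counted for 62 members, and 16 had under 30 reads in every library, so their values carry the largest counting error. The members lay on 22 chromosomes, with 15 on chromosome 13 and 9 on chromosome 3.

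The highest mean level, over the 8 group means, was that of LINC00624 at 53.5 RPKM (GRCh37 chromosome 1, 146986157 to 146989699, minus strand). LINC00657, now NORAD, averaged 38.6 RPKM; it is an abundant unspliced RNA that binds Pumilio proteins and is known for a role in genome stability. LINC00984 averaged 38.4 RPKM and is annotated today as the protein-coding gene INAFM2. LINC00958 averaged 32.3 RPKM and LINC00339, which neighbours CDC42, 27.8 RPKM. LINC00973 followed at 24.1 RPKM, LINC00941 at 23.0 and LINC00493, now SMIM26 and coding for a small mitochondrial protein, at 22.6. LINC00938 stood at 17.5 RPKM and LINC00094, now BRD3OS, at 15.7; the last lies across BRD3 on the opposite strand, and this library type does not tell strands apart. LINC00657 and LINC00984 differed by less than the spread between their libraries.

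**Figure D1:**
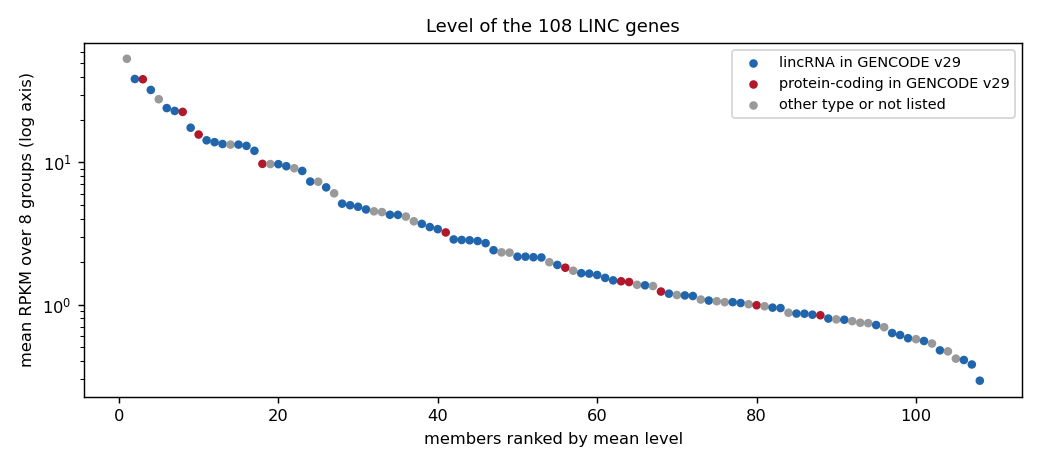
Mean level of each of the 108 LINC genes over the 8 group means (RPKM, log axis), ranked from highest to lowest and coloured by the gene type in GENCODE v29. The levels run from 53.5 down to 0.292 RPKM, and 3 of the 10 highest are annotated as protein-coding.

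By gene identifier in GENCODE v29, 64 of the 108 are lincRNA, 14 antisense, 11 protein-coding and 4 not listed; the rest are other non-coding or pseudogene types. A tested gene overlapped 33 members and none overlapped 75. Near-identical copies make LINC00152, LINC00086 with LINC00087, and LINC00893 with LINC00894 uncertain.

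With cisplatin in shPRMT1 cells, 48 members rose and 34 fell, on limma's test at an adjusted p under 0.05. Among all tested genes 30.4% were higher and 23.6% lower, 54.0% together. The median log2 difference was 0.18 over the members and 0.04 over all tested genes. These and all later differences are of log2(RPKM + 1), so that changes of low genes come out smaller than they are. A change of 2-fold or more on this scale was reached by 9 of the risen and 4 of the fallen members. With library medians set equal, which moved the median of all genes by 0.10, 54 rose and 22 fell, so the share of rises among the called was 71.1% in place of 58.5%. The 75 members that no tested gene overlaps gave 29 rises and 25 falls. Because 10 members passed the filter through cisplatin libraries alone and 14 through untreated libraries alone, some of these counts follow from the filter; among the 84 that reached 1 RPKM in a library of each drug state, 38 rose and 21 fell.

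The largest rise in shPRMT1 cells was that of LINC00337, now ICMT-DT, the divergent transcript of the carboxyl methyltransferase gene ICMT. Its shPRMT1 libraries ranged from 2.09 to 3.13 RPKM with cisplatin (median 2.85), against 0.237 to 0.592 untreated (median 0.482), a log2 difference of 1.34 (SE 0.09, adjusted p 4.2e-07). ICMT itself, 267 bp away, differed by 0.07 in shPRMT1 cells and was not called. LINC00460, a transcript studied in several carcinomas, ranged from 11.4 to 17.5 RPKM with cisplatin and from 4.33 to 8.38 untreated, 1.27 (SE 0.09, adjusted p 8.45e-07). LINC00839 ranged from 19.1 to 24.9 RPKM with cisplatin and from 7.70 to 9.71 untreated, 1.24 (SE 0.10, adjusted p 1.2e-06). In each of these the drug states did not overlap. LINC00337 passed the filter through its cisplatin libraries alone, so its rise follows in part from the filter.

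LINC00973 rose by 1.23 (SE 0.10, adjusted p 1.4e-06) in shPRMT1 cells. LINC00941 ranged from 29.3 to 35.3 RPKM with cisplatin and from 12.8 to 15.8 untreated, 1.15 (SE 0.04, adjusted p 5.4e-09), with the smallest spread of the group. LINC00857 ranged from 15.9 to 21.9 RPKM with cisplatin and from 5.92 to 10.7 untreated, 1.10 (SE 0.05). LINC00601, whose promoter is printed above, ranged from 12.9 to 25.2 RPKM with cisplatin and from 5.98 to 10.3 untreated, 1.05 (SE 0.11). All libraries of these members with cisplatin lay above all without it. LINC00443 rose by 1.02 (SE 0.17, adjusted p 0.00033), but its hairpins differed more than the drug states did. It held 10.5 and 5.07 RPKM in shPRMT1 #1 with cisplatin, against 1.70 to 3.20 RPKM in #3 and #5 with cisplatin, and 3.40 and 2.93 RPKM in untreated shPRMT1 #1, so the drug states overlapped.

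The largest fall in shPRMT1 cells was that of LINC00669, now MIR924HG, the host gene of miR-924, which spans 593396 bp on chromosome 18. Its shPRMT1 libraries held 0.907 to 1.56 RPKM with cisplatin (median 1.11) and 4.10 to 9.79 RPKM untreated (median 7.32), a log2 difference of -1.90 (SE 0.10, adjusted p 8.6e-08). LINC00534, spanning 347832 bp, held 0.229 to 0.727 RPKM with cisplatin and 2.41 to 5.32 untreated, -1.84 (SE 0.09, adjusted p 3.1e-08). LINC00621 held 0.242 to 0.484 RPKM with cisplatin and 1.59 to 2.75 untreated, -1.25 (SE 0.08, adjusted p 3.9e-07). Both drug states were apart in all 3. LINC00534 and LINC00621 passed the filter through untreated libraries alone, which favours a fall. LINC00621 overlaps the pseudogenes BASP1P1 and NUS1P2, so its reads may be theirs.

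LINC00375 fell by 1.15 (SE 0.14), with 0 to 1.91 RPKM with cisplatin and 2.21 to 4.50 untreated, on at most 36 reads in any library. LINC00342 fell by 0.97, LINC00641 by 0.87 and LINC00086, now SMIM10L2A, by 0.82. LINC00571 fell by 0.80 on at most 21 reads, with 0 to 0.192 RPKM with cisplatin and 0.337 to 1.30 RPKM untreated. These falls were also complete separations of the 6 treated from the 6 untreated libraries. LINC00086 and LINC00571 passed the filter through untreated libraries alone.

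**Figure D2:**
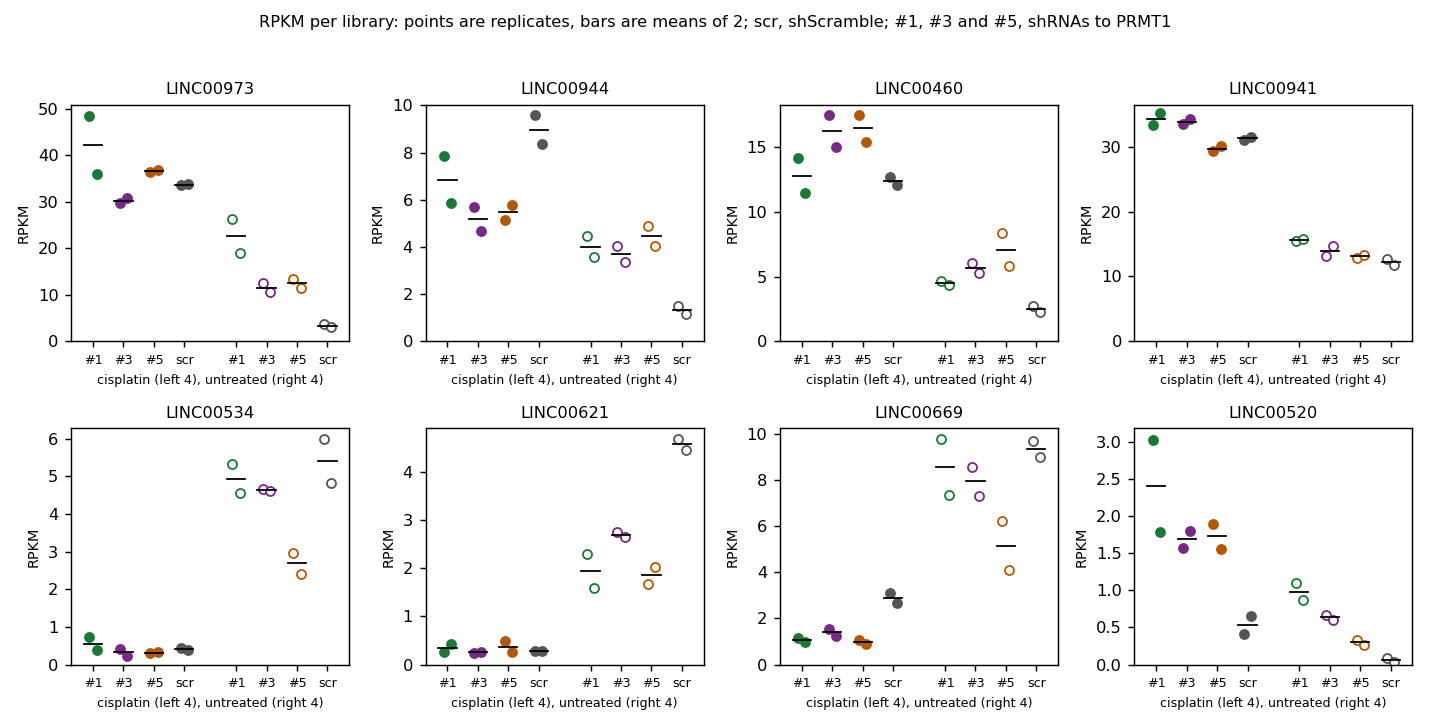
RPKM in every library for 8 LINC genes, with cisplatin on the left of each panel and untreated on the right, shRNAs #1, #3 and #5 to PRMT1 before shScramble (scr); points are replicates and bars means of 2. LINC00973, LINC00944 and LINC00460 are higher in untreated shPRMT1 than in untreated shScramble cells, and LINC00534, LINC00621 and LINC00669 are low in every cisplatin library.

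With cisplatin in shScramble cells, 32 members rose and 16 fell, against 15.5% higher and 14.7% lower among all tested genes, 30.2% together. The median log2 difference was 0.08 over the members and -0.01 over all tested genes. A 2-fold change or more was reached by 11 and 5. Among the 84 members at 1 RPKM in a library of each drug state, 26 rose and 7 fell. The test rests on 2 libraries a side; without untreated replicate 2, cisplatin replicate 1 or cisplatin replicate 2 of shScramble cells the falls numbered 10, 10 and 9.

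LINC00973 rose most in shScramble cells, by 3.00 (SE 0.17, adjusted p 6.9e-07). LINC00944 followed, with 9.60 and 8.35 RPKM with cisplatin and 1.51 and 1.15 RPKM untreated, 2.10 (SE 0.17, adjusted p 6.5e-06). LINC00943, which overlaps it on the other strand of chromosome 12, rose by 1.29, with 2.24 and 1.53 RPKM with cisplatin and 0.175 and 0.164 RPKM untreated; reads of this pair cannot be told apart. LINC00460 held 12.7 and 12.1 RPKM with cisplatin and 2.72 and 2.28 RPKM untreated, 1.94 (SE 0.16, adjusted p 9.4e-06). LINC00337 rose by 1.65, LINC00941 by 1.29, LINC00839 by 1.24 and LINC00525, which lies across the checkpoint gene HUS1 on the opposite strand, by 1.20. In each of these members the 2 treated libraries lay above the 2 untreated ones. LINC00943, like LINC00337, passed the filter through cisplatin libraries alone.

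The falls in shScramble cells were led by LINC00534, at 0.453 and 0.391 RPKM with cisplatin and 5.99 and 4.83 RPKM untreated, -2.17 (SE 0.15, adjusted p 2.6e-06). LINC00621 held 0.289 and 0.281 RPKM with cisplatin and 4.69 and 4.47 RPKM untreated, -2.12 (SE 0.14). LINC00669 held 3.11 and 2.69 RPKM with cisplatin and 9.70 and 8.99 RPKM untreated, -1.41 (SE 0.18). LINC00641 fell by 1.36, LINC00086 by 1.01, LINC00341 by 0.98, LINC00085, now SPACA6, by 0.78 and LINC00882 by 0.76. LINC00534, LINC00621, LINC00086, LINC00341 and LINC00882 passed the filter through untreated libraries alone. LINC00085 lost the call without any of 3 of the shScramble libraries (untreated replicate 2, cisplatin replicates 1 and 2; adjusted p 0.13, 0.06 and 0.068) and in the fit of these 4 libraries alone (0.054).

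Set side by side, 27 members (25.0%) rose and 14 (13.0%) fell in both kinds of cells, against 13.6% and 12.7% of all tested genes. LINC00672, now LASP1NB, was called in opposite directions, 0.26 in shPRMT1 and -0.42 in shScramble cells. In shPRMT1 cells alone 40 were called (37.0%, against 27.2% of all tested genes), in shScramble cells alone 6 (5.56%, against 3.42%), and in neither 20 (18.5%, against 42.6%). The shPRMT1 side has 6 libraries per drug state and the shScramble side 2, so a call on one side and not on the other is no difference between them; that difference has its own test below. LINC00839 rose by 1.24 in each.

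**Figure D3:**
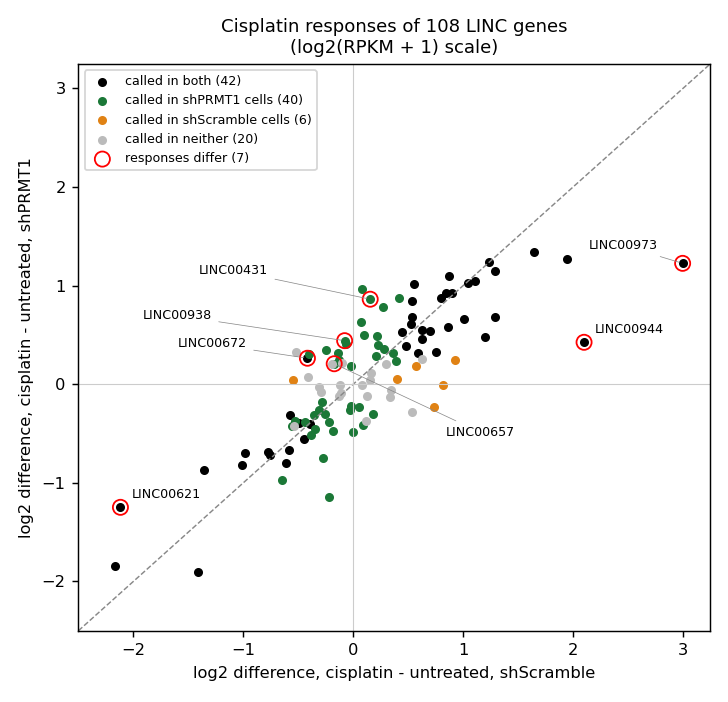
Log2 difference between cisplatin and untreated libraries for each of the 108 LINC genes, in shPRMT1 cells (vertical axis) and shScramble cells (horizontal axis), coloured by where limma called it; the dashed line marks equal responses and red rings the 7 members whose responses differed. Points called in both kinds of cells, 42 in all, lie mostly along the line, and LINC00973 and LINC00944 lie far to its right.

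The cisplatin calls were also counted by the length of genome a member spans. Of 23 members over 50 kb, 6 rose and 12 fell in shPRMT1 cells and 3 rose and 6 fell in shScramble cells. Of 29 members from 10 to 50 kb, 17 rose and 6 fell in shPRMT1 cells and 13 rose and 3 fell in shScramble cells. Of 56 members under 10 kb, 25 rose and 16 fell in shPRMT1 cells and 16 rose and 7 fell in shScramble cells. The median log2 difference in shPRMT1 cells was -0.22, 0.31 and 0.14 in these classes, longest first, and in shScramble cells -0.07, 0.39 and -0.00. Over 50 kb, 26.1% of the members were higher and 52.2% lower in shPRMT1 cells, and 13.0% higher and 26.1% lower in shScramble cells. All tested genes over 50 kb gave 17.6% and 49.7% in shPRMT1 cells and 13.9% and 29.7% in shScramble cells. From 10 to 50 kb, 58.6% of the members were higher and 20.7% lower in shPRMT1 cells, and 44.8% and 10.3% in shScramble cells, against 38.1% and 17.0%, and 21.6% and 10.2%, of all tested genes. Under 10 kb, 44.6% of the members were higher and 28.6% lower in shPRMT1 cells, and 28.6% and 12.5% in shScramble cells, against 32.3% and 11.6%, and 11.4% and 8.26%, of all tested genes. These differences between members and all genes were not tested. LINC00534 and LINC00669 are among the long ones, and LINC00973, LINC00460 and LINC00337 among the short.

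**Figure D4:**
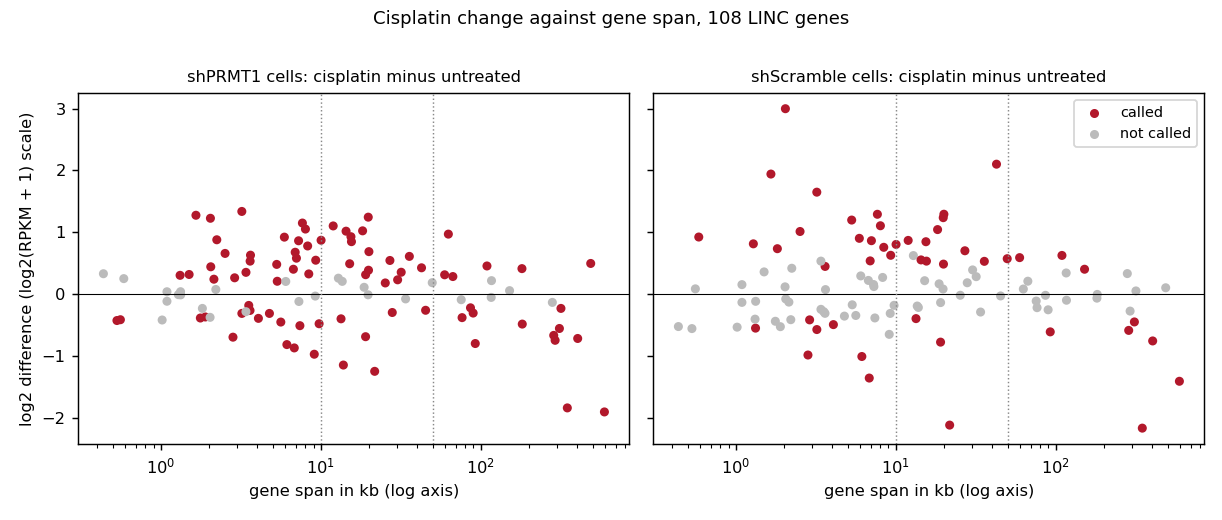
Log2 difference between cisplatin and untreated libraries against the genomic span of each of the 108 LINC genes (kb, log axis), in shPRMT1 cells on the left and shScramble cells on the right; red points are called and dotted lines stand at 10 and 50 kb. Of the 23 members over 50 kb, 12 are called lower in shPRMT1 cells and 6 in shScramble cells.

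Tested genes within 50 kb of the called members were read beside them. Among the 48 members that rose in shPRMT1 cells, 32 had 44 tested neighbours within 50 kb, of which 12 (27.3%) rose and 11 (25.0%) fell. Among the 34 that fell, 20 had 25 such neighbours, of which 5 (20.0%) rose and 8 (32.0%) fell, against the 30.4% and 23.6% of all tested genes. In shScramble cells the 32 risen members included 22 with 31 neighbours, of which 4 (12.9%) rose and 7 (22.6%) fell. The 16 fallen ones included 8 with 9 neighbours, of which 0 rose and 4 fell, against 15.5% and 14.7% of all tested genes. The following neighbours were picked after their values were seen. LINC00601 rose while ADAM12, a metalloprotease gene 25413 bp away on the same strand, fell by 2.30 in shPRMT1 and by 2.82 in shScramble cells. C10orf90, on its other side, fell by 0.64 in shPRMT1 and by 0.45 in shScramble cells. LINC00857 rose while ANXA11, coding for an annexin 2137 bp away, fell by 0.36 in shPRMT1 and by 0.49 in shScramble cells. Near LINC00460, EFNB2, an ephrin ligand gene 111513 bp away, rose by 0.81 in shPRMT1 and by 0.85 in shScramble cells. The nearest coding gene to LINC00973 on its lower side, DCBLD2, differed by -0.10 in shPRMT1 and 0.16 in shScramble cells and was not called.

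PRMT1 knockdown in untreated cells gave fewer calls than cisplatin did. Of the 108 members 9 (8.33%) rose and 6 (5.56%) fell, 13.9% together. Among all tested genes 4.41% were higher and 3.83% lower, 8.24% together. With the replicate number as a block, 14 rose and 9 fell. Shares of all tested genes with the block were not counted, here or below. With equal library medians the calls were 5 and 2, a share of 71.4% rises in place of 60.0%. Because 19 members passed the filter through shPRMT1 libraries alone, and 0 through shScramble libraries alone, rises are favoured; among the other 89 the counts were 7 and 6.

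LINC00973, described above, had the largest knockdown difference, 1.86 (SE 0.14). LINC00944 held 3.37 to 4.89 RPKM in untreated shPRMT1 libraries (median 4.04) and 1.51 and 1.15 RPKM in untreated shScramble libraries, 1.12 (SE 0.14, adjusted p 0.00097). LINC00460 held 4.33 to 8.38 RPKM in untreated shPRMT1 libraries (median 5.53) and 2.72 and 2.28 RPKM in untreated shScramble libraries, 0.92 (SE 0.13, adjusted p 0.0023). These 3 are also among the members that cisplatin raised most in shScramble cells, a comparison that uses the same untreated shScramble libraries. LINC00539 rose by 0.62, LINC00520 by 0.61, LINC00472, whose span holds MIR30A and MIR30C2, by 0.57, LINC01060 by 0.56 and LINC00888 by 0.48. LINC00520 held 0.267 to 1.10 RPKM in untreated shPRMT1 libraries and 0.0834 and 0.0290 RPKM in untreated shScramble libraries. LINC00539 held 0.570 to 1.37 RPKM in untreated shPRMT1 and 0.220 and 0.153 RPKM in untreated shScramble libraries, on at most 35 reads in any library. LINC00520 and LINC00539 passed the filter through shPRMT1 libraries alone, which favours a rise on knockdown.

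The falls on knockdown were small apart from LINC00621, at 1.59 to 2.75 RPKM in untreated shPRMT1 libraries (median 2.17) and 4.69 and 4.47 RPKM in untreated shScramble libraries, -0.83 (SE 0.12, adjusted p 0.0021). LINC00641 fell by 0.67, LINC00664 by 0.55, LINC00431 by 0.52, LINC00672 by 0.44 and LINC00657 by 0.24. LINC00431 overlapped, at 3.73 to 8.23 RPKM in shPRMT1 and 7.87 and 9.76 RPKM in shScramble untreated libraries. Over all 108 members the untreated shRNA classes did not overlap in 26, of which 14 were called. The matching share of all tested genes was not counted, so 26 is no result about the members. Without replicate 1 or 2 of untreated shScramble cells 3 and 3 members were called higher and 2 and 1 lower. Without replicate 1 of untreated shPRMT1 #3 5 were called higher and 3 lower, and without its replicate 2, 2 lower. LINC00944, LINC00460 and LINC00621 kept the call without any single library, with a highest adjusted p of 0.025, 0.049 and 0.037. All other members named here except LINC00973 lost it without untreated shScramble replicate 2, and 7 of them also without an shPRMT1 library; their highest adjusted p ran from 0.11 for LINC00539 to 0.29 for LINC00431.

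Under cisplatin, PRMT1 knockdown raised 15 members and lowered 9, against 10.4% higher and 9.36% lower among all tested genes, 19.8% together; blocking on the replicate number gave 23 and 17. Among the 89 members at 1 RPKM in a library of both shRNA classes the counts were 8 and 9. LINC01004 held 2.07 to 4.96 RPKM in shPRMT1 cisplatin libraries (median 3.97) and 1.63 and 1.29 RPKM in shScramble cisplatin libraries, 0.95 (SE 0.18, adjusted p 0.0049). LINC00520 held 1.56 to 3.03 RPKM in shPRMT1 cisplatin libraries (median 1.80) and 0.417 and 0.648 RPKM in shScramble cisplatin libraries, 0.93 (SE 0.14, adjusted p 0.0013) and passed the filter through shPRMT1 libraries alone. LINC00938 held 17.9 to 25.1 RPKM in shPRMT1 and 13.5 and 14.9 RPKM in shScramble cisplatin libraries, 0.56 (SE 0.08, adjusted p 0.0012). LINC00283 rose by 0.64, LINC00674 by 0.58, LINC00115 by 0.55, LINC00338, now the snoRNA host SNHG20, by 0.55 and LINC00936, now ATP2B1-AS1, by 0.55. LINC00283 and LINC00936 also passed the filter through shPRMT1 libraries alone. Of these 8, LINC00338 alone overlapped between the shRNA classes. Over all 108 members the classes did not overlap in 33 under cisplatin, of which 22 were called. For this count too the share of all tested genes was not counted.

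The largest fall with knockdown under cisplatin was that of LINC00618, at 0.346 to 1.31 RPKM in shPRMT1 cisplatin libraries (median 0.495) and 1.83 and 2.95 RPKM in shScramble cisplatin libraries, -1.05 (SE 0.18, adjusted p 0.0030), on 2 to 20 reads per library. LINC00669 held 0.907 to 1.56 RPKM in shPRMT1 and 3.11 and 2.69 RPKM in shScramble cisplatin libraries, -0.86 (SE 0.15, adjusted p 0.0025). LINC00664 held 3.76 to 4.78 RPKM in shPRMT1 and 7.97 and 6.59 RPKM in shScramble cisplatin libraries, -0.65 (SE 0.11, adjusted p 0.0028), and was thus lower with knockdown in both drug states. LINC00592 fell by 0.67, LINC00316 by 0.63 on at most 9 reads, LINC01057, now SLC44A3-AS1, by 0.56, LINC00944 by 0.56 and LINC00511, an RNA studied in breast and lung cancer, by 0.50. LINC00944 was therefore higher with knockdown in untreated cells and lower with it under cisplatin, where equal library medians gave an adjusted p of 0.081.

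The replicate block also called LINC00472 at 0.41, LINC00460 at 0.26 and LINC00657 at 0.14 for knockdown under cisplatin (adjusted p 0.013, 0.022 and 0.019), against 0.052, 0.21 and 0.095 without it. In untreated cells it also called LINC00669 at -0.37 (adjusted p 0.016, against 0.16). The shScramble cisplatin libraries bear on these calls. Without their replicate 1 the counts under cisplatin were 5 and 2, and without their replicate 2 the rises numbered 2. The rises numbered 8 without replicate 1 of shPRMT1 #3 with cisplatin, 9 without replicate 1 of #5, and 6 in the fit of the cisplatin libraries alone. LINC00520, LINC00938 and LINC00511 kept the call without any single library. LINC00664, LINC00669 and LINC01057 lost it without shScramble cisplatin replicate 1 (adjusted p 0.065, 0.0504 and 0.10), and LINC01004, LINC00338, LINC00618 and LINC00674 without replicate 2 (0.062, 0.062, 0.054 and 0.11). LINC00283, LINC00115, LINC00316, LINC00592, LINC00936 and LINC00944 lost it without either, with a highest adjusted p from 0.14 to 0.29, and LINC00115, LINC00316, LINC00592 and LINC00936 also without at least 1 shPRMT1 library.

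**Figure D5:**
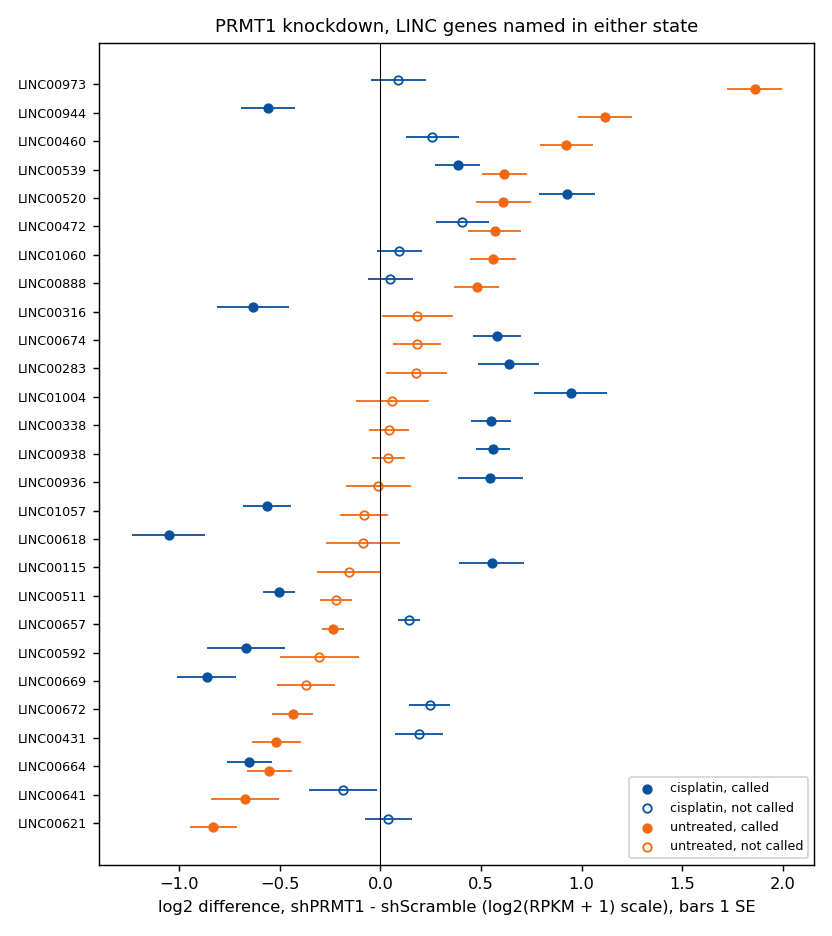
Log2 difference between shPRMT1 and shScramble libraries with cisplatin (blue) and untreated (orange) for the LINC genes named in either drug state, with bars of 1 SE and filled points where limma called the difference. LINC00520, LINC00539 and LINC00664 are called on the same side in both states, and LINC00944 is called on opposite sides, 1.12 untreated and -0.56 with cisplatin.

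The cisplatin response itself differed between shPRMT1 and shScramble cells for 7 members: 5 with a response more positive in shPRMT1 cells and 2 more negative, against 2.08% and 3.11% of all tested genes, 5.19% together. Blocking on the replicate number gave 10 and 14, and equal library medians gave 2 and 2, an even split in place of 71.4% positive. LINC00944 responded by 0.43 in shPRMT1 cells, with 4.68 to 7.85 RPKM with cisplatin and 3.37 to 4.89 untreated, and by 2.10 in shScramble cells, a difference of -1.67 (SE 0.19, adjusted p 0.0014). It kept the call under every alternative run. LINC00973 differed by -1.77 (SE 0.19), a value that contains the knockdown difference it was singled out for. The part of compression of its high cisplatin values in this difference was not tested. LINC00460 had a difference of -0.67 with an adjusted p of 0.072, and of 0.0032 with the replicate block. The block also called LINC00618 at -0.97, LINC00525 at -0.72 and LINC00943 at -0.60 (adjusted p 0.018, 0.027 and 0.033), against 0.062, 0.060 and 0.078 without it.

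The positive differences were LINC00621 at 0.87, LINC00431 at 0.71, LINC00672 at 0.68, LINC00938 at 0.52 and LINC00657 at 0.38, with adjusted p from 0.016 to 0.040. LINC00431 held 7.09 to 17.2 RPKM with cisplatin and 3.73 to 8.23 untreated in shPRMT1 cells, and 9.17 and 10.6 RPKM with cisplatin and 7.87 and 9.76 RPKM untreated in shScramble cells. LINC00938 held 17.9 to 25.1 RPKM with cisplatin and 14.5 to 17.6 untreated in shPRMT1 cells, and 13.5 and 14.9 RPKM with cisplatin and 14.2 and 15.8 RPKM untreated in shScramble cells. LINC00657 held 34.0 to 44.4 RPKM with cisplatin and 28.6 to 39.9 untreated in shPRMT1 cells, and 37.4 and 36.5 RPKM with cisplatin and 41.4 and 42.1 RPKM untreated in shScramble cells. Each of the 5 lost the call without any one of the 4 shScramble libraries. Positive calls then numbered 1 without untreated replicate 1, a call gained by LINC00115, and 0 without each of the other 3; without a replicate of untreated #3, 2, and without either cisplatin replicate of #3 or replicate 1 of #5 with cisplatin, 3. The highest adjusted p on leaving out a library ran from 0.087 for LINC00621 to 0.21 for LINC00431.

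Of 7 listed LINC loci known to hold a small protein, 5 were in the table and 4 passed the filter. With cisplatin in shPRMT1 cells 1 rose and 1 fell, and none was called in the other comparisons without the replicate block. LINC00493, or SMIM26, averaged 25.0 ± 4.07 RPKM in shPRMT1 cisplatin and 20.9 ± 2.24 in shPRMT1 untreated libraries (SD, n = 6 each), and rose by 0.24 (adjusted p 0.017). LINC00998, or SMIM30, whose product is a small membrane protein, averaged 8.83 ± 2.31 RPKM in shPRMT1 cisplatin and 11.5 ± 1.59 in shPRMT1 untreated libraries and fell by 0.37 (adjusted p 0.0199). In shScramble cells it averaged 6.85 ± 0.420 RPKM with cisplatin and 10.3 ± 0.164 untreated (SD, n = 2 each), with an adjusted p of 0.074, and of 0.0040 with the replicate block. The block also called both for knockdown under cisplatin, LINC00493 at 0.24 and LINC00998 at 0.29 (adjusted p 0.023 and 0.037, against 0.14 and 0.26), and the response difference of LINC00493 at 0.37 (0.035, against 0.20). LINC00116, or MTLN, the mitochondrial microprotein mitoregulin, and LINC00961, or SPAAR, a lysosomal polypeptide, were called in none of the 5 comparisons; their means over the libraries of a drug state and shRNA class ran from 2.93 to 4.38 and from 1.10 to 1.82 RPKM.

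Of 10 listed LINC loci with a studied RNA role, 9 were in the table and 6 passed the filter, among them LINC00941, LINC00657 and LINC00511 described above. LINC00152, now CYTOR, averaged 7.51 ± 0.529 RPKM in shPRMT1 cisplatin and 7.21 ± 0.769 in shPRMT1 untreated libraries, and 8.40 ± 0.126 RPKM in shScramble cisplatin and 6.11 ± 0.164 in shScramble untreated libraries, where it rose by 0.40 (adjusted p 0.019). LINC00467 averaged 17.2 ± 1.07 RPKM in shScramble cisplatin and 11.2 ± 1.02 in shScramble untreated libraries and rose by 0.57 (adjusted p 0.014); in shPRMT1 cells its difference was 0.19 (adjusted p 0.096, and 0.023 with the replicate block). LINC00704, or MANCR, an RNA known from mitotic and breast cancer cells, fell by 0.30 in shPRMT1 cells, with 7.75 to 13.6 RPKM with cisplatin and 8.36 to 20.3 untreated (overlapping). LINC00346, or PRECSIT, also with an AP-1 motif, rose by 0.92 in shScramble cells (adjusted p 0.0085), at 15.6 ± 2.67 RPKM with cisplatin and 7.74 ± 0.900 untreated, and differed by 0.25 in shPRMT1 cells (adjusted p 0.12, and 0.0041 with the replicate block). With the block LINC00346 and LINC00704 were also called for knockdown in untreated cells, at 0.62 and 0.39 (adjusted p 0.00096 and 0.0033, against 0.061 and 0.079), and for the response difference, at -0.67 and -0.48 (0.0061 and 0.010, against 0.17 and 0.15).

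Long non-coding RNAs under other names, such as MALAT1 and the snoRNA host genes, gave a second reading. Of 35 listed, 32 were tested. With cisplatin 22 rose and 2 fell in shPRMT1 cells, against 30.4% and 23.6% of all tested genes. In shScramble cells 14 rose and 3 fell, against 15.5% and 14.7%. PRMT1 knockdown raised 9 and lowered 3 under cisplatin, against 10.4% and 9.36% of all tested genes. Untreated, it raised 2 and lowered 1, against 4.41% and 3.83%. The median log2 difference of the listed RNAs with cisplatin was 0.44 in shPRMT1 and 0.35 in shScramble cells, against 0.18 and 0.08 for the LINC members. The difference between the lists was not tested. By gene type, the 64 members annotated as lincRNA gave 32 rises and 20 falls with cisplatin in shPRMT1 cells and 25 and 7 in shScramble cells. The 11 annotated as protein-coding gave 4 and 4 in shPRMT1 and 1 and 3 in shScramble cells. The shares of all tested genes with cisplatin are those given above.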

How the data were processed

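RNA was sequenced in 16 SK-OV-3 libraries; TruSeq RNA v2, the kit named per the labels' protocols, does not mark strand. The authors deposited 1 table of linear RPKM values, 1 column per library, per the file headers, with GRCh37 coordinates. The submitters' processing notes name HISAT2, DESeq2, GRCh37 and mm9 without versions or roles; the counting program, annotation release and treatment of duplicates were not given in the sources used here.

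Whole reads were recovered from the RPKM steps for all 40649 genes that had a value above 0 (tolerance 0.01 reads); a limma-voom fit on them is an alternative. The test was limma 3.58.1 with a trended prior (R 4.3.3) on log2(RPKM + 1), over 18149 genes with 1 RPKM or more in 2 or more libraries, with 8 group means. Benjamini-Hochberg adjustment was applied to each of 5 comparisons, and a call is an adjusted p under 0.05. shPRMT1 is the mean of 3 shRNAs. On simulated data 98 of 100 genes changed 2-fold were called for cisplatin in shPRMT1 cells and 85 of 100 for untreated knockdown, over 18149 genes. False calls numbered 9 and 7. The changed genes were drawn from those averaging over 30 reads, and no shared difference between replicates 1 and 2 was simulated. Every gene was given the same fixed dispersion, and the 3 hairpins the same means. The recovery therefore does not apply to members with fewer reads, and does not measure how many real changes were found in these data.

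Named in each comparison were the up to 8 largest rises and 8 largest falls among called members, the 10 highest members, LINC00973 and the lists of small-protein and studied loci; LINC00346 was added after its values were seen. The members and lists were chosen with earlier results of these data known. Alternatives were pseudocounts of 0.1 and 0.5, no filter and a filter of 2 RPKM, equal library medians, the compared libraries alone, the replicate block and leaving out each library. The fits that left out a library did not include the block. Replicate numbers were read as pairs: the difference between replicates 1 and 2 correlated between groups over genes, at 0.30 to 0.70 in 28 pairs, so block values are given beside reported counts they move by over 1.5 times and beside reported differences whose call they change. Gene types and promoters come from GENCODE v29 and RefSeq, on GRCh38, matched by identifier or symbol. Floors of 3 reads cover counting error only.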

Additional observations from a re-analysis of the deposited data

Results flagged for a closer look

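For 7 LINC genes limma found the cisplatin response in shPRMT1 cells to differ from that in shScramble cells, given here as the shPRMT1 response minus the shScramble response in log2 units. LINC00973 stood at -1.77, a value that contains the knockdown difference it was chosen for, and LINC00944 at -1.67. The other 5 were LINC00621 at 0.87, LINC00431 at 0.71, LINC00672 at 0.68, LINC00938 at 0.52 and LINC00657 at 0.38. At an unadjusted p under 0.05 in the same limma test the members numbered 36 of 108, against 3469 of all 18149 tested genes. Whether these shares differ was not tested. LINC00973 and LINC00944 were each low in only 1 of the 4 states, untreated shScramble cells, with 3.68 and 3.03 RPKM and 1.51 and 1.15 RPKM in its replicates, and 2 libraries carry that state.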

How the results depend on the processing

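Limits come from depth and from the number of shScramble libraries: 16 members had under 30 reads in every library, and each shScramble state has 2 libraries. The counts of members higher and lower were recomputed under every alternative, against reported counts of 48 and 34 for cisplatin in shPRMT1 cells, 32 and 16 in shScramble cells, 9 and 6 for knockdown untreated, 15 and 9 for knockdown with cisplatin, and 5 and 2 for the response difference. With a filter of 2 RPKM, which tests 64 members, the cisplatin counts were 29 and 21 in shPRMT1 cells, 8 lower in shScramble cells and 7 higher with knockdown under cisplatin. Equal library medians gave 22 lower for cisplatin in shPRMT1 cells, 5 and 2 for knockdown untreated and 2 higher for the response difference. The replicate block gave 14 higher for knockdown untreated, 23 and 17 with cisplatin and 10 and 14 for the response difference, and no member lost a call with it; calls gained numbered 7 and 13 for cisplatin in shPRMT1 and shScramble cells, 8 and 16 for knockdown untreated and with cisplatin, and 17 for the response difference. No filter gave 9 higher for knockdown with cisplatin and 3 for the response difference, limma-voom 3 higher and a pseudocount of 0.1 4 lower for the response difference, and the compared libraries alone 2 lower for knockdown untreated and 6 higher with cisplatin. Leaving out 1 library gave 43 to 49 higher and 31 to 35 lower for cisplatin in shPRMT1 cells, 22 to 33 and 9 to 18 in shScramble cells, 3 to 10 and 1 to 6 for knockdown untreated, 2 to 17 and 2 to 11 with cisplatin, and 0 to 6 and 2 to 3 for the response difference. Of 69 values of named members, 40 kept their call under every alternative and 29 lost it under at least 1; 0 changed direction. The causes were not tested. The fit of the compared libraries alone was not run for the response difference, which uses all libraries.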
